A study of Mus musculus with 73 samples.

Results

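The segment of chromosome 5 described here is the set of 100 bp methylation tiles that start between 100 and 142 Mb (mm9) in the reduced representation bisulfite sequencing (RRBS) table. It holds 29628 of the 817277 tiles in that table, and a further 30517 tiles lie on the rest of chromosome 5. The segment was chosen because tiles in it differed between day 7 triple nulls and their controls, so the day 7 contrast is given as a description, with no test. At the lower end, the last tile outside with a value in every day 7 library averaged 79.3% ± 5.93 in nulls and 81.1% ± 3.01 in controls, and the first tile inside averaged 89.7% ± 3.36 in nulls and 92.1% ± 8.00 in controls (SD, n = 3 each). The upper end had 96.3% ± 6.42 in nulls and 89.0% ± 7.97 in controls just inside, and 88.8% ± 6.21 in nulls and 89.3% ± 8.52 in controls just outside (SD, n = 3 each).

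RRBS was run on mouse hepatocyte DNA from 27 libraries in 10 groups. The day 7 triple nulls (3 libraries, 9 weeks old) lacked FoxA1 and FoxA2 after Cre induction and FoxA3 as well; their controls (3 libraries, 9 weeks old) were FoxA1L/L;FoxA2L;L;FoxA3-/- mice given GFP, so FoxA3 was absent from both groups. Day 13 triple nulls (2 libraries) and day 13 controls (2 libraries) had the same alleles, 13 days after induction at 12 weeks of age. Livers made doubly null in adulthood and then partly resected (3 libraries) stood against resected livers given AAV GFP (2 libraries), all 12 weeks old. Developmental double nulls were 1 library each at 20 days, 8 weeks, 4 months and 6 months. FoxA1L/L;FoxA2L/+ and FoxA1L/+;FoxA2L/+ mutants (2 libraries each, 8 weeks) were depleted in development, per their titles. All of these were compared with 1 control library at each of those 4 ages. The sources used here do not give what carried Cre into the RRBS mice. Nothing says that libraries of the same group and age came from separate animals, so p-values measure only the spread between these samples, which may be technical. Each age-series group has 1 library per age, so its spread also holds differences of age. The limma tests below took their spread from all RRBS groups, not from the compared groups only. The tiles carry a methylation fraction without coverage, so the depth behind each value is unknown.

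FoxA proteins are pioneer transcription factors of the liver that open chromatin at hepatocyte enhancers, and DNA at such sites loses methylation during development. RRBS usually reads fragments cut at CCGG sites, and bisulfite turns unmethylated cytosine into thymine while 5-methylcytosine stays as cytosine. In such reads a C-to-T variant in the DNA looks like an unmethylated cytosine, and a variant in the cutting site can remove a fragment. Such a variant is inherited with the chromosome around it, so animals with no, 1 or 2 copies would share high, middle or low levels at linked sites. That order holds for a single cytosine. A tile may average several cytosines, and their number is unknown here, so a middle tile level does not give a number of copies. The files used here hold no genotypes, and whether linked variants underlie any level below was not tested. The genes Foxa1, Foxa2 and Foxa3 lie on chromosomes 12, 2 and 7 in the mouse, not on chromosome 5.

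Day 7 triple nulls and controls parted at 92 of the 17324 segment tiles with a value in all 6 libraries, all 3 nulls lying above or all 3 below every control with means at least 20 points apart. Of these, 38 were higher and 54 lower in the nulls, or 0.531% of the tested tiles, against a background of 0.309% over the whole table (0.157% higher and 0.153% lower). The segment was chosen on this contrast, so that difference in share is a description. The differing tiles were not spread evenly. Between 102 and 114 Mb, a stretch picked after these values were seen, 46 of 3403 tiles parted (12 higher and 34 lower in the nulls), a share of 1.35%. In the remainder of the segment 46 of 13921 tiles parted (26 higher and 20 lower), or 0.330%, close to the 0.303% of tiles on the other chromosomes. Leaving out 1 library at a time gave 141 to 189 parted tiles in the segment, as smaller groups overlap less often. The fewest came without null 2 (of 17425 tested tiles) and the most without control 3 (of 17883). The share over the whole table was not counted with a library left out, so these counts have no background.

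The window from 104 to 106 Mb was the densest in the segment, with 10 of 372 tiles (2.69%). Among 1162 windows of 2 Mb with at least 100 tested tiles it ranked 5, behind 4 windows of chromosome 1 between 170 and 178 Mb. The windows from 106 to 108 Mb and from 108 to 110 Mb followed with 1.87% and 1.39%. The share was 0.525% in the window just below 102 Mb and 0.224% in the window just above 114 Mb. It was higher again from 138 to 140 Mb, where 9 of 819 tiles parted (1.10%, rank 36), a higher share than in the windows starting at 102, 110 and 112 Mb.

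**Figure D1:**
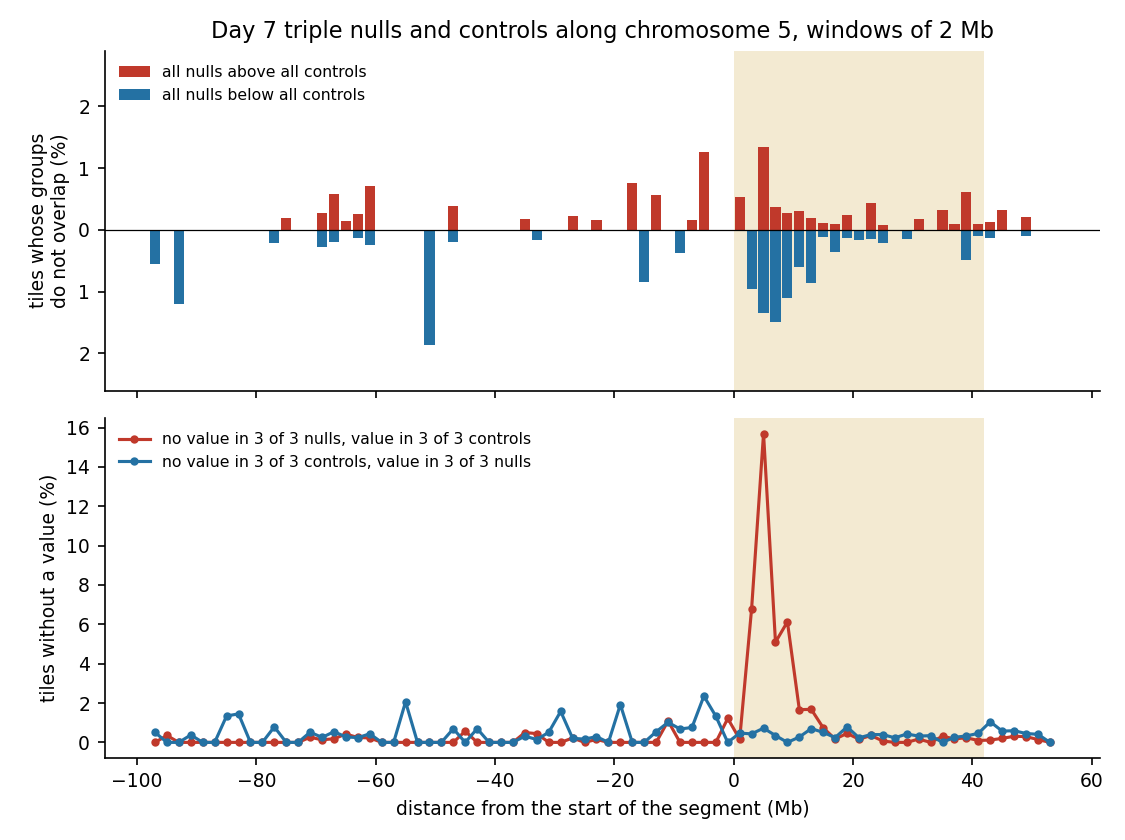
The upper panel shows, per 2 Mb window of chromosome 5, the percentage of tiles where all day 7 nulls lay above (red, upward) or below (blue, downward) all controls by at least 20 points. The lower panel shows the percentage of tiles with no value in any null (red) or in any control (blue) but a value in every library of the other group. The x axis is the distance from the segment's start, the segment is shaded, and red peaks at 15.7% in the window from 104 to 106 Mb of the lower panel.

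The 10 tiles described next have the largest differences when at most 1 tile per 1000 bp is taken. The tile at chr5:106349001-106349100 had the largest difference of all. It read 0%, 0% and 0% in the 3 day 7 nulls, against 71.2%, 93.3% and 71.4% in day 7 controls 1, 2 and 3. The means were 0% ± 0 in nulls and 78.6% ± 12.7 in controls (SD, n = 3 each), a difference of -78.6 points, and the next 100 bp tile was 47.8% in nulls and 77.3% in controls on average. In the other 21 RRBS libraries the level ran from 74.3% to 97.6% with a median of 92.9%, so no library outside the day 7 nulls was near 0.

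The tile at chr5:110351601-110351700 read 0% in each of the 3 nulls, against 62.7%, 91.8% and 60.8% in controls 1, 2 and 3, a difference of -71.8 points. Of the 20 other libraries with a value, the developmental null of 8 weeks had 44.4% and the rest had 84.6% or more. This tile shows the pattern that recurred: nulls at the bottom, controls 1 and 3 between, and control 2 with the libraries of the other experiments.

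At chr5:113368901-113369000 the nulls had 2.56%, 0% and 2.33%, against 41.5%, 91.8% and 52.9% in controls 1, 2 and 3. The developmental null of 8 weeks had 0% at this tile, and the other 20 libraries had 86.2% to 100%. Of the 9 tiles with low nulls among the 10, it was the one at which a library of another experiment was as low as the day 7 nulls. At chr5:103089501-103089600 the nulls had 0%, 0% and 0%, against 40.5%, 73.8% and 64.7% in controls 1, 2 and 3, and 47.1% to 97.1% in the others. The differences of the means were -60.5 and -59.7 points.

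The tile at chr5:139180101-139180200 is the only 1 of these 10 outside the stretch of 102 to 114 Mb. It had 25.1%, 26.3% and 26.3% in the nulls, against 68.8%, 80.9% and 70.5% in controls 1, 2 and 3, a difference of -47.5 points. Its neighbours on each side, left out by the spacing, also parted, by -29.9 and -42.1 points, and the other 21 libraries had 78.5% to 90.6%. The tile at chr5:104766401-104766500 ran the other way: nulls had 91.7%, 62.5% and 75%, against 25.0%, 34.1% and 30.4% in controls, with 0% to 62.5% in 17 other libraries and a difference of 46.5 points.

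The remaining 4 of the 10 again had the nulls lowest and control 2 highest. At chr5:110839901-110840000 the nulls had 26.7%, 28.3% and 27.8%, against 56.4%, 98.0% and 64.3% in controls 1, 2 and 3. At chr5:113707801-113707900 the nulls had 8.16%, 20.3% and 7.89%, against 40.6%, 84.3% and 42.9% in controls, and the developmental null of 8 weeks had 21.4%. At chr5:104816201-104816300 the nulls had 3.70%, 11.4% and 21.4%, against 43.3%, 77.3% and 47.1% in controls. At chr5:106793501-106793600 the nulls had 15.8%, 17.6% and 20.8%, against 48.0%, 83.3% and 49.1% in controls. The differences of the means at these 4 tiles ran from -45.3 to -42.0 points.

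**Figure D2:**
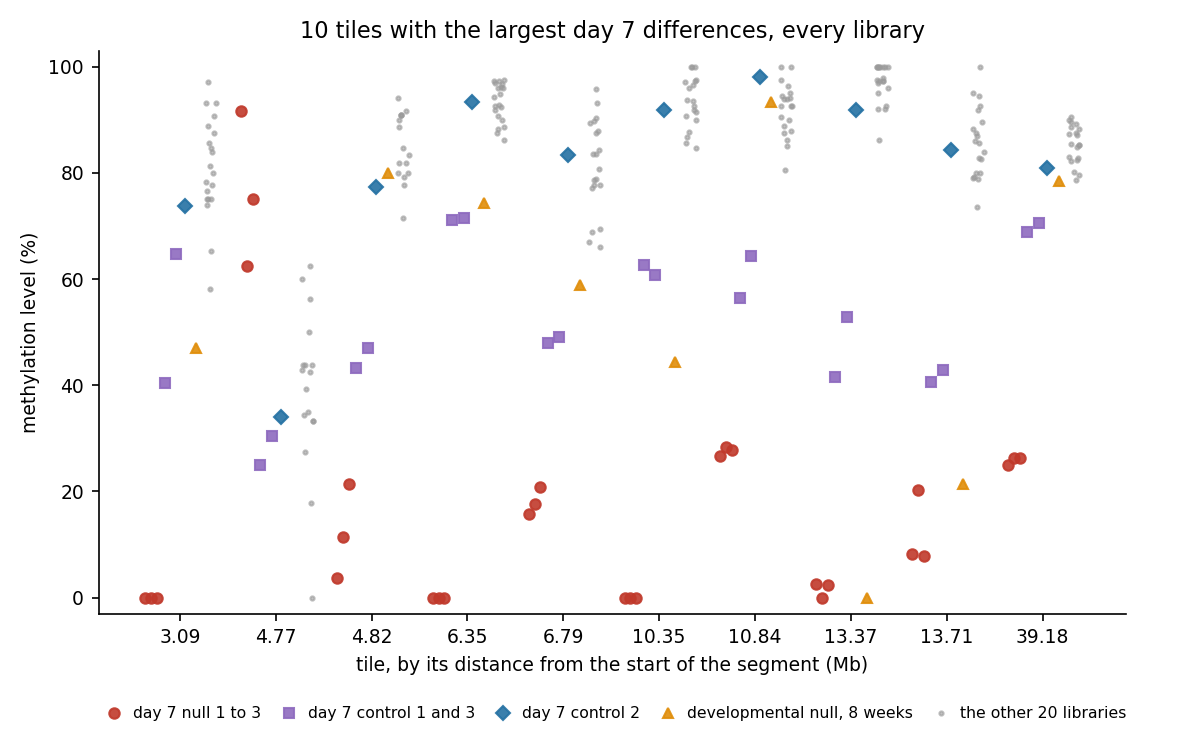
Methylation level in percent (y) at the 10 tiles with the largest day 7 differences, at most 1 per 1000 bp, placed by their distance from the segment's start (x). Each point is a library: red circles are the 3 day 7 nulls, violet squares day 7 controls 1 and 3, the blue diamond day 7 control 2, the orange triangle the developmental null of 8 weeks and grey dots the other 20 libraries. Nulls lie at 28.3% or less at 9 of the 10 tiles, and controls 1 and 3 lie between them and control 2 at those 9.

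The middle place of controls 1 and 3 was common in the stretch of 102 to 114 Mb. Of its 46 parted tiles, 38 (82.6%) had controls 1 and 3 each between the null mean and control 2. The same held at 16 of the 46 parted tiles (34.8%) in the remainder of the segment and at 395 of 1350 (29.3%) on the other chromosomes. The nulls were close to each other there, with a median SD of 3.89 points at the 46 tiles, against 11.4 points among the controls. Of the 46 tiles, 41 had a neighbouring tile with a value in all 6 libraries, and at 8 a neighbour had parted as well, so most lay as single tiles.

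A second set of tiles was picked without the day 7 controls: those where each day 7 null departed by at least 25 points, in 1 direction, from the median of the other 21 libraries, with at least 15 of these measured. The stretch of 102 to 114 Mb had 45 such tiles of 3351 (1.34%; 7 with the nulls above and 38 below), the remainder of the segment 8 of 13555 (0.0590%), and the other chromosomes 430 of 432864 (0.0993%). At each tile every library was placed on a scale with the other libraries' median at 0 and the null mean at 100. Controls 1 and 3 had median positions of 48.0 and 52.4 in the stretch, and control 2 had 5.11. The tiles were picked without the controls but the segment and the stretch were not, so these positions are a description. Control 1 lay between 25 and 75 at 33 of 44 tiles and control 3 at 31 of 45, while control 2 lay under 25 at 39 of 45. At the 8 tiles in the remainder of the segment controls 1, 2 and 3 had median positions of 51.8, 12.5 and 43.4, so control 2 was again the lowest. Each control lay at 75 or more, near the nulls, at 3 of the 8, which the medians do not show. Of these 8 tiles, 5 lay between 138 and 140 Mb (0.622% of 804), with medians of 39.8, 7.39 and 35.0. On the other chromosomes the 3 controls were alike, with median positions of 88.8, 87.6 and 94.8. Day 13 nulls (79.0 and 79.6) and day 13 controls (77.4 and 80.7) were also near the day 7 nulls there, so many such tiles set both triple null experiments, controls included, apart from the rest.

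Among libraries of the other experiments, the developmental null of 8 weeks stood apart in the stretch. Its median position was 20.0, with 9 of 41 tiles at 75 or more, 10 between 25 and 75, and 22 under 25. The other 20 libraries had medians from -4.36 to 5.40. The scale's 0 is the median of the 21 libraries outside day 7, which by itself draws most of them towards 0. From 102 to 108 Mb this library had a median of 13.5 over 25 tiles, and from 108 to 114 Mb 75.9 over 16 tiles, with 8 of these at 75 or more. Day 13 nulls had medians of -3.42 and 1.12 and day 13 controls 0 and 0, so in the stretch the triple nulls of day 13 (12 weeks old) lay with the other libraries.

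Levels at 31 of these tiles, those where the other libraries' median was 80% or more, were counted in bands. The choice of tiles keeps the nulls at least 25 points below that median, so they cannot reach the top band. It also places the other libraries high, since the tiles were picked on their own median. In day 7 nulls 1, 2 and 3, 6, 4 and 5 tiles were at 10% or less, 3, 6 and 5 at 10 to 40%, and 14, 16 and 17 at 40 to 60%. A further 8, 5 and 4 tiles were above 60%. The band of 40 to 60% held the most tiles in each null. Control 1 had 9 tiles and control 3 had 5 at 40 to 60%, and the rest of both lay between 60 and 90%. Control 2 had 16 tiles at 90% or more and 15 between 60 and 90%. The developmental null of 8 weeks had 1 of 30 tiles at 10% or less, 2 at 10 to 40%, 8 at 40 to 60%, 13 at 60 to 90% and 6 at 90% or more. In the other 20 libraries no tile lay under 40%, at most 1 lay at 40 to 60%, and 16 to 28 lay at 90% or more.

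**Figure D3:**
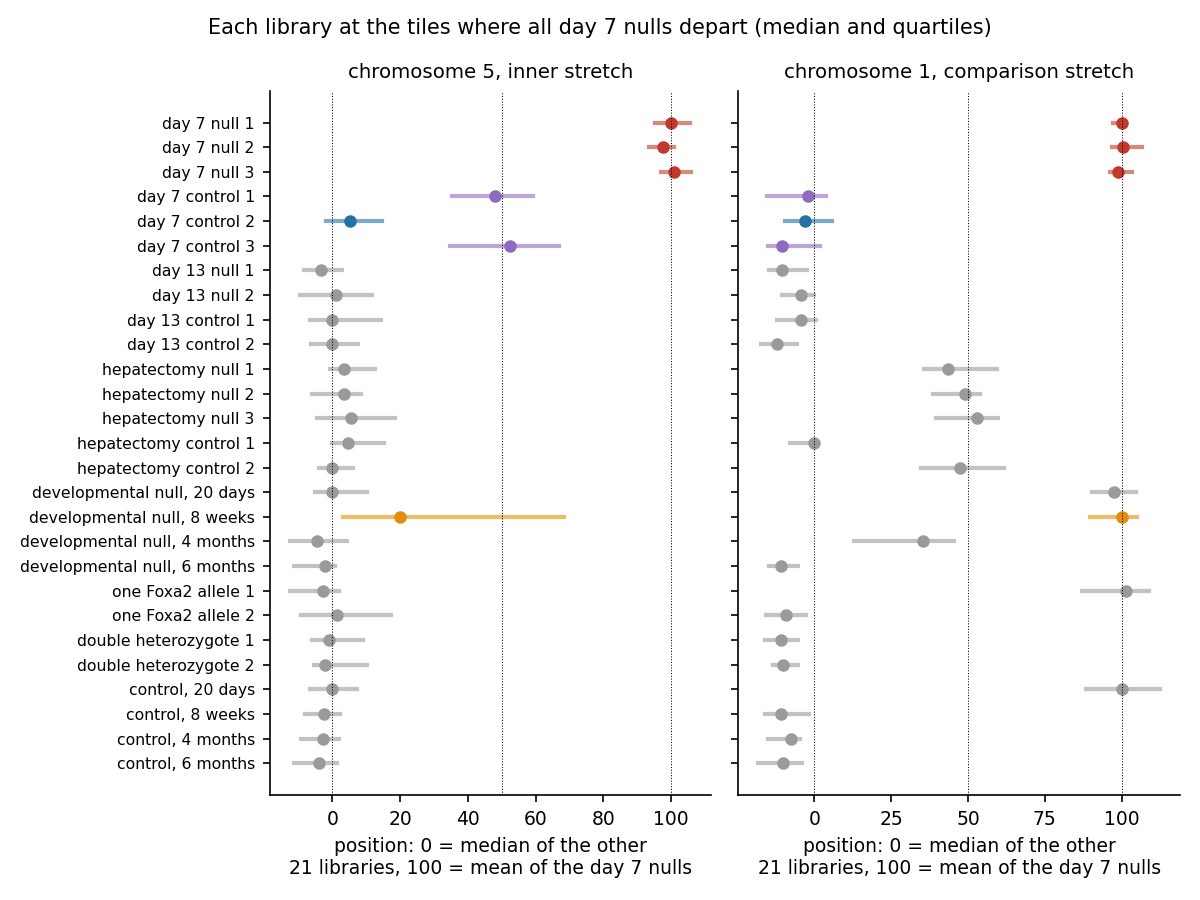
Median (point) and quartiles (bar) of each RRBS library's position at the tiles where all 3 day 7 nulls depart from the other libraries, for chromosome 5 from 102 to 114 Mb (left, 45 tiles) and chromosome 1 from 170 to 178 Mb (right, 23 tiles). The x axis is 0 at the median of the 21 libraries outside day 7 and 100 at the mean of the day 7 nulls. On chromosome 5, day 7 controls 1 and 3 (violet) lie near 50, and on chromosome 1 several libraries of other experiments lie near 50 or 100. One Foxa2 allele and double heterozygote are the FoxA1L/L;FoxA2L/+ and FoxA1L/+;FoxA2L/+ mutants.

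At the 92 parted tiles of the segment, the share of tiles where a library lay nearer the null mean than the control mean was 19.3% to 39.1% over the 21 other libraries, with a median of 28.8%. In the stretch of 102 to 114 Mb it was 4.35% to 34.1% with a median of 11.1%, the highest being the developmental null of 8 weeks. In the remainder of the segment the median was 51.3%, and on the other chromosomes 50.3%. In these counts the other libraries sided with the controls over the whole stretch. From 108 to 114 Mb, however, the developmental null of 8 weeks was nearer the nulls at 11 of 19 tiles (57.9%). In the remainder the libraries ran from 31.0% to 66.7%.

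A readout other than the level moved with these tiles. In the segment, 229 of 18430 tiles (1.24%) had a value in all 3 day 7 controls and in no day 7 null, against a background of 0.276%. The reverse, a value in all 3 nulls and in no control, held at 73 of 18984 tiles (0.385%), against a background of 0.46%. Of the 229 tiles, 191 lay between 102 and 114 Mb, 5.04% of the tiles there, and 73 of them in the window from 104 to 106 Mb (15.7%). That window ranked 3 of 1171 on this measure, behind 2 windows of chromosome 1. The remainder of the segment had 38 such tiles (0.259%).

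The 191 tiles formed 125 runs, with gaps over 500 bp between runs, of 1 to 5 tiles. They were highly methylated where read: the median level was 89.3%, 88.9% and 88.2% in controls 1, 2 and 3, and 92.5% over the other libraries' medians. Other libraries mostly had values there, from 78.5% of the tiles in the developmental null of 8 weeks to 99% in hepatectomy control 1, with a median of 95.8%. Elsewhere tiles of this kind were often missing in other libraries too, which had values at a median of 45.4% of them on the other chromosomes. The authors' own average for the day 7 nulls, a column of the same table, was filled at 23 of the 191 tiles (12.0%) and at 875 of 1129 such tiles (77.5%) on the other chromosomes. The sources used here do not say how that average was made.

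Counted library by library, over tiles with a value in at least 20 libraries, the day 7 nulls lacked 7.56%, 7.11% and 7.99% of the 3743 such tiles in the stretch. On the other chromosomes they lacked 0.911%, 0.652% and 1.55%. Controls 1, 2 and 3 lacked 2.70%, 0.748% and 2.81% in the stretch and 2.04%, 0.852% and 2.36% on the other chromosomes. In the window from 104 to 106 Mb the nulls lacked 20.7%, 21.5% and 22.2% of 478 tiles, which ranked 1 of 1166 windows in each null. Controls lacked 4.39%, 1.46% and 4.6% there, and the other libraries 0.418% to 10.9%. The same window held the largest share of tiles of narrow spread at which a null departed by at least 25 points from the median of all libraries, 2.89%, 4.08% and 2.95% in the 3 nulls, rank 1 of 1084 windows in each.

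**Figure D4:**
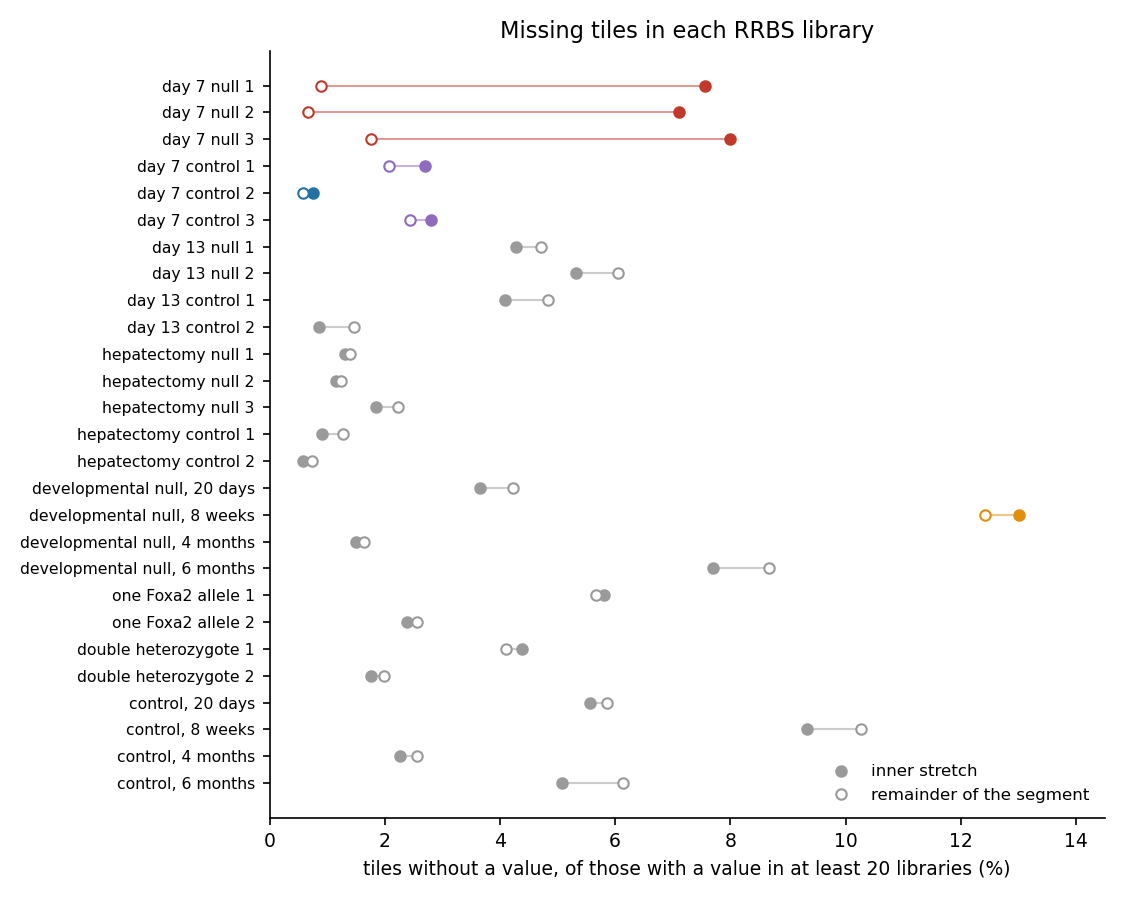
Percentage of tiles without a value (x) in each of the 27 RRBS libraries (rows), among tiles with a value in at least 20 libraries, for chromosome 5 from 102 to 114 Mb (filled) and the remainder of the segment (open). The day 7 nulls (red) lack 7.11% to 7.99% in the stretch and 0.665% to 1.75% in the remainder, and the developmental null of 8 weeks lacks 13.0% and 12.4%.

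Pairs of libraries were compared over tiles measured in all 27. In the stretch, day 7 nulls differed from control 2 by at least 40 points at 0.853% to 0.934% of 2462 tiles and from controls 1 and 3 at 0.122% to 0.284%. Nulls differed from each other at 0% to 0.0406%, and from the other libraries at 0.731% to 1.67% (median 1.06%). Pairs among the other libraries differed at 0% to 1.54% (median 0.325%), so the ranges overlap. On the other chromosomes nulls differed from control 2 at 0.0740% to 0.0965% and from controls 1 and 3 at 0.0570% to 0.0828%. Pairs share libraries, so no test was run.

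Chromosome 1 between 170 and 178 Mb held the 4 windows with a higher share of parted tiles. This region too was picked on its day 7 values. There 64 of 1120 tiles (5.71%) parted between day 7 nulls and controls, 14 higher and 50 lower in the nulls. The share was 1.35% in the chromosome 5 stretch, and the background 0.309%. A value in all 3 controls and in no null was found at 206 of 1547 tiles (13.3%), against 5.04% in the chromosome 5 stretch and a background of 0.276%. At 13 of the 64 tiles (20.3%) controls 1 and 3 lay between the nulls and control 2. At 23 tiles where all nulls departed from the other libraries, controls 1, 2 and 3 had median positions of -2.21, -3.19 and -10.6. Libraries of other experiments spread out at these tiles: the developmental nulls of 20 days and 8 weeks, FoxA1L/L;FoxA2L/+ mutant 1 and the control of 20 days had medians of 97.6, 100, 101 and 100. The 3 hepatectomy nulls and hepatectomy control 2 had medians of 43.5, 49.1, 53.1 and 47.4. The developmental null of 8 weeks was near the day 7 nulls here and, from 108 to 114 Mb, on chromosome 5.

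Day 13 triple nulls and controls, in the same contrast 6 days later, had no call among 16135 segment tiles by limma's moderated test with a variance trend (Benjamini-Hochberg adjusted p under 0.05 over the whole table and at least 20 points). The background was 0.00317% of all tiles, and an unadjusted p under 0.05 was found at 819 segment tiles (5.08%), against 4.68% of all tiles. Groups of 2 libraries gave a weak test. Leaving out 1 library left 1 in its group, and calls then appeared in the segment and outside it, so the lack of calls depends on each library. Set beside each other across experiments, day 7 nulls and day 13 nulls parted at 105 of 3173 tiles in the stretch (3.31%), against a background of 1.04%, and day 7 controls and day 13 controls at 48 of 3473 (1.38%), against a background of 1%. These comparisons share their libraries with the day 7 contrast and differ in age.

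Hepatectomy nulls and controls also had no segment tile past the threshold of the 17767 tested, against a background of 0.000828%, and 803 tiles (4.52%) had an unadjusted p below 0.05, against 4.67% of all tiles. Leaving out a null gave 1 call without null 3, beside 4 higher and 8 lower over all 498681 tiles, and 0 otherwise. Leaving out a control left 1 library in that group, and calls then appeared in the segment and outside it. In the stretch 45 of 4146 tiles (1.09%) had a value in both controls and in no hepatectomy null, against a background of 1.17%. For day 13 this was 149 of 3935 tiles (3.79%), against a background of 3.91%.

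Developmental double nulls were higher than controls at 17 segment tiles and lower at 0 of 13541, or 0.126%, against a background of 0.101%. Over all tiles 343 were higher and 31 lower, so most calls were gains there too. None of the 17 was a tile that parted at day 7, and 1 lay in the stretch of 102 to 114 Mb. Only 0.531% of the tested segment tiles parted at day 7, so a set of 17 can hold few, and no difference was tested. There were 39 calls without the control of 20 days, beside 880 higher and 83 lower over all 375061 tiles. The main test did not pair nulls and controls by age. With age as a block 35 segment tiles were higher and 2 lower, beside 709 and 94 over all tiles. The count was 0 when the spread was taken from the compared groups only. At chr5:130549201-130549300 the nulls of 20 days, 8 weeks, 4 months and 6 months had 75%, 80%, 69.4% and 70.9%, against 38.3%, 2.22%, 13.7% and 6.67% in controls of those ages. The difference was 58.6 points (SE 7.82, adjusted p = 0.00147 by limma), and the groups did not overlap. Day 7 nulls had 41.8%, 28.0% and 8.82% at this tile and day 7 controls 21.5%, 25.2% and 8.89%, with no separation.

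At chr5:100986001-100986100 developmental nulls had 81.0%, 77.8%, 64.4% and 72.2% at 20 days, 8 weeks, 4 months and 6 months, against 58.3%, 18.8%, 0% and 2.56% in controls (53.9 points, SE 9.08, limma adjusted p = 0.0113). At chr5:132541801-132541900 they had 68.6%, 78.6%, 80.6% and 82.5%, against 44.8%, 31.4%, 30.0% and 23.1% in controls (45.2 points, SE 6.66, limma adjusted p = 0.00350). The widest spread at these 3 tiles was among controls, the control of 20 days being the highest each time.

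The partial mutants were set against the same 4 age-series controls, so these comparisons share controls and differ in age. FoxA1L/L;FoxA2L/+ mutants were higher at 5 and lower at 17 of 14306 segment tiles, or 0.154%, against a background of 0.242% (175 higher and 757 lower over all tiles). Their largest changes were -35.2 points at chr5:136322101-136322200 (limma adjusted p = 0.00516; 55.6% and 38.9% in mutants, 74.1% to 88.9% in controls) and 32.6 points at chr5:130549201-130549300 (adjusted p = 0.0487; 40% and 55.6% in mutants, 2.22% to 38.3% in controls). Another was -30.6 points at chr5:141350201-141350300 (limma adjusted p = 0.00250).

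FoxA1L/+;FoxA2L/+ mutants were higher at 3 and lower at 15 of 14389 segment tiles, or 0.125%, against a background of 0.274% (225 higher and 846 lower over all tiles). On the logit scale the split was 7 higher and 9 lower. The largest change was 37.4 points at chr5:116249701-116249800 (limma adjusted p = 0.00864), with 38.9% and 50.0% in mutants and 0% to 14.8% in controls. Changes at chr5:114084101-114084200 and chr5:134491001-134491100 were -35.2 and -33.5 points (limma adjusted p = 0.0188 and 0.0211). None of the 22 and 18 tiles called in the partial mutants had parted at day 7. Only 0.531% of the tested segment tiles did, so sets of this size can hold few. The spread behind the calls also took in the day 7 libraries. Both counts of calls were 0 when the spread was taken from the compared groups only.

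Whole-genome bisulfite sequencing (WGBS), which does not rest on CCGG cutting, was read at 824 FoxA sites of 400 bp in the segment, each with a level in every library. Hepatocytes of Foxa1L/L;2L/L mice with Alfp Cre, active from development, averaged 22.1% and 21.9%, against 17.8% and 19.2% in Foxa1L/L;2L/L controls without Cre. The means were 22.0% ± 0.173 in these nulls and 18.5% ± 1.05 in controls (SD, n = 2 each), and the difference was 3.48 points in the segment and 4.18 points over the other sites. Foxa1L/L;2L/L mice given AAV Cre as adults under the hepatocyte promoter Tbg averaged 16.9% and 17.6%, a mean of 17.2% ± 0.509 (SD, n = 2). Their difference from the same controls was -1.26 points in the segment and -1.42 points over the other sites. At the 194 sites between 102 and 114 Mb, developmental nulls averaged 21.6% and 20.1%, adult nulls 16.4% and 17.5%, and controls 17.4% and 18.8%, close to their levels over the segment. An exact two-sided permutation test gave p = 0.333 for the segment difference of each kind of null, the smallest that 2 against 2 allows.

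Developmental nulls lay above controls at 63 of the 824 sites and below them at 8, with no overlap and at least 20 points (7.65% and 0.971%), against a background of 8.09% and 0.462%. In adult nulls 0 were higher and 8 lower (0.971%), against a background of 0.209% and 0.37%. At chr5:122917445-122917844 developmental nulls had 76.1% and 84.3%, against 21.9% and 20.8% in controls. At chr5:125290082-125290481 developmental nulls had 30.0% and 38.6% and adult nulls 40.7% and 51.1%, against 90.4% and 92.8% in controls. A site overlapping it, chr5:125289954-125290353, had 21.4% and 23.2% in developmental nulls and 39.7% and 44.8% in adult nulls, against 82.1% and 75.2% in controls. These nulls share the controls, so the low levels in both kinds of null rest on the same 2 control libraries. Another adult-null site, chr5:125289950-125290349, overlaps the last and has the same levels.

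None of the 92 parted tiles overlapped a FoxA site of the WGBS table. Of all segment tiles 409 (1.38%) did, a share at which a set of 92 can hold few, and no difference was tested. Likewise none overlapped a site of the authors' list of hyper-methylated sites (18 segment tiles do) or an HNF6 peak of a control list (37 do). HNF6 is a liver transcription factor whose binding the study mapped in the same kinds of mice. Of the 191 tiles missing in the nulls, 4 overlap a FoxA site.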

How the data were processed

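RRBS levels are methylation fractions per 100 bp tile, deposited by the authors as 1 table on mm9; per the submitters' processing notes reads were trimmed with Trim Galore 0.3.3 and mapped with BSMAP 2.74. The sources used here do not give the tiles' coverage filter, so no interval could be made. WGBS levels at FoxA sites are likewise fractions, per the file headers; fractions were multiplied by 100. The adult table's column headed as developmental null 1 equalled control 2 at all 28654 shared sites and was not used as a null. The HNF6 peak lists give a fold enrichment per peak, per the file headers; only positions were used. Libraries had values at 445198 to 622668 tiles. No genome of this build was used, so tiles have no sequence or gene here.

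Day 7 groups were described without a test. Other RRBS groups were compared by limma's moderated test (limma 3.58.1, R 4.3.3; variance trend, spread from all RRBS groups), adjusted over all tiles and tested on simulated data. Other values came from Python 3.11.15. Alternatives were another scale, minimum difference, tile filter or spread, a replicate block and each replicate left out. The tiles named are the 10 with the largest day 7 difference, at most 1 per 1000 bp, the 3 largest called per other comparison and the 3 largest WGBS sites. The segment, its tiles and these lists were chosen with earlier results of these data known, and the stretch of 102 to 114 Mb after its values were seen.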

Additional observations from a re-analysis of the deposited data

Results flagged for a closer look

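In the developmental nulls, a group of 4, the library of 8 weeks lay apart from the other 3 at 3 of the named day 7 tiles. It had 74.3% at chr5:106349001-106349100, 44.4% at chr5:110351601-110351700 and 0% at chr5:113368901-113369000, each below the other 3 nulls by most of the group's range. The developmental null of 4 months lay apart once, at chr5:110839901-110840000, with 85.0%. Of 39 groups of 4 looked at, 4 held such a library, and chance gives about 1 in 20. Why these libraries lay apart was not tested.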

How the results depend on the processing

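The 92 parted day 7 tiles became 502 at a minimum difference of 10 points, 28 at 30 points and 46 among tiles measured in all RRBS libraries; without the stretch of 102 to 114 Mb, added after seeing the data, 46 remained. With each replicate left out they numbered 141 to 189. For the minimum differences, the tile filter and the left-out replicates, only segment tiles were counted. No background share stands beside those counts. The median share of parted tiles nearer the nulls, 28.8%, was 7.41% at 30 points, 45.3% at 10 points, 11.1% in the stretch and 51.3% in the remainder. Day 13 and hepatectomy kept 0 calls in the other settings, and leaving out a hepatectomy null gave 0 or 1. Leaving out a day 13 library or a hepatectomy control left 1 in its group, and calls then appeared in the segment and outside it. Such a lone library was assumed to vary like the other groups. The 17 calls of the developmental nulls became 37 with no minimum difference and 37 with the replicate block, which for them is age. They became 0 with the spread of the compared groups only and 14 to 39 with a replicate left out, 39 without the control of 20 days. The 22 calls of FoxA1L/L;FoxA2L/+ mutants became 776 (17 higher, 759 lower) with no minimum difference. The whole table then had 410 higher and 22751 lower of 385708. They became 0 with the spread of the compared groups only and 22 to 33 with a control left out. The 18 calls of FoxA1L/+;FoxA2L/+ mutants became 775 (6 higher, 769 lower), 0 and 18 to 27 in these settings. With no minimum difference the whole table had 467 higher and 23328 lower of 390603 for them. With a replicate left out the WGBS differences were 2.73 to 4.22 points in developmental nulls and -2.0 to -0.514 in adult nulls, and at sites with a control level of 5 to 95% they were 4.55 and -1.74. The causes were not tested.

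The replicate block gave 110 day 7 tiles, again counted in the segment only, and 0 calls at day 13 and after hepatectomy. Same-numbered libraries did not deviate together: correlations of their deviations were -0.00928 to 0.0108 at day 7, 0.00161 at day 13 and -0.0444 to -0.0271 after hepatectomy. At the 4 ages they were 0.0735 to 0.434, and 3 of 4 libraries matched their own age best. Missing coverage limits all levels.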
